A study of Mus musculus with 6 samples.

Results

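The genes described here are 10 genes of the fibroblast growth factor (FGF) receptor system that 4T1 cells transcribe: the receptors Fgfr1, Fgfr2, Fgfr3 and Fgfrl1, the intracellular adaptors Frs2, Frs3, Grb2 and Gab1, and the ligand family genes Fgf7 and Fgf11. They were taken by symbol from the count table, and all were found among its 31017 genes and passed the filter on low counts that left 12158 genes for testing. 4T1 is a mouse mammary carcinoma line. Poly(A) RNA was sequenced from 3 libraries labelled FGFR2 KO, whose cells were nucleofected with Cas9 and guides against FGFR2, and 3 control libraries, whose cells were nucleofected with Cas9 and control guides. All cells were cultured in 3D collagen I gels and released with collagenase before RNA extraction. The labels name a lower and a higher collagen concentration without saying which a library had, and they give no culture time. They also do not say which exon the guides cut, whether the edited cells were a pool or a clone, or whether the replicates were separate cultures. The p-values therefore reflect variation among 6 libraries that could be technical.

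FGF receptors are cell surface tyrosine kinases. An FGF bound together with heparan sulfate joins receptor molecules into a dimer, the kinase domains phosphorylate each other and the docking protein FRS2, and FRS2 gathers GRB2, GAB1 and the phosphatase SHP2, which pass the signal to the RAS to ERK and PI3K pathways. In mammary epithelium FGFR2 is known for its role in branching of the ducts. Ligand choice depends on splicing: the third immunoglobulin-like loop of FGFR2 is completed by either of a pair of alternative exons, IIIb, the epithelial form that binds FGF7 and FGF10, or IIIc, the form usual in mesenchyme.

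Exon IIIb is shown because it completes the form that binds FGF7, the ligand gene described below. The deposited counts sum all forms of Fgfr2, so no value below tells them apart. In the mm10 annotation the gene lies on the minus strand of chromosome 7, with exon IIIb at chr7:130199758-130199905 (148 bases). Of 19 models with a coding sequence, 10 carry IIIb, 5 carry IIIc and 0 carry both. The sequence is given 5′ to 3′ on the transcribed strand, from the GENCODE M21 transcripts.
Fgfr2 exon IIIb: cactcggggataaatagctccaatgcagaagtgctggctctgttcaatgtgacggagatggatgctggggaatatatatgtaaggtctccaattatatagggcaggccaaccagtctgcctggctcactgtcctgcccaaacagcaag

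The libraries held 18635037 to 20171309 counts in the KO group and 15531790 to 20447719 counts in the control group. All 6 markers of mammary epithelial carcinoma cells were present, with a summed level of 3247 to 3328 CPM (counts scaled to a common library total) in the KO libraries and 3921 to 4038 CPM in the control libraries. These markers did not move together: 2 were called higher in KO (Cdh1 and Esrp1), 3 lower (Epcam, Krt8 and Krt18), and Cldn7 was not called. Krt18 fell most, with 918.4 CPM in KO and 1401.5 CPM in control. Of 7 fibroblast markers 4 had counts, and their sum of 39.6 to 45.3 CPM in the KO libraries and 36.2 to 38.2 CPM in the control libraries was almost all Pdgfra; Lum, Col3a1 and Thy1 were at 0. Of 5 leukocyte markers 4 had counts, with a sum of 5.99 to 8.49 CPM in the KO and 13.9 to 15.9 CPM in the control libraries. Most of that sum was Cd68, a lysosomal gene high in macrophages, which was lower in KO at 5.97 CPM, against 13.7 CPM in control (edgeR adjusted p = 7.88e-10), while Ptprc, the gene of the pan-leukocyte antigen CD45, had 0.0357 CPM in KO and 0.0215 CPM in control and Cd3e was at 0. Of 4 endothelial markers 2 had counts, with a sum of 0.153 to 0.588 CPM in KO and 0.0492 to 0.258 CPM in control. In bulk RNA, fewer cells of a type and less RNA per cell cannot be told apart. The KO and control transcriptomes differed widely: 54.6% of tested genes had an adjusted p below 0.05 in edgeR's quasi-likelihood test, 27.1% higher and 27.5% lower in KO.

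Against that background, 5 of the 10 genes changed, 2 higher (Fgfr3 and Fgf7) and 3 lower (Fgfr1, Frs3 and Fgf11). The share is close to that of all tested genes. The median log2 fold change over the 10 genes was 0.01, beside -0.01 over all tested genes, and the median absolute value was 0.21 in both. The libraries of the groups did not overlap for 4 of the 10 genes (Fgfr1, Fgfr3, Frs3 and Fgf11), and for 59.5% of all tested genes. Without overlap, 1 of the 10 was higher in KO (29.5% of all tested genes) and 3 were lower (30.0%). The falls of Fgfr1 and Fgf11 were called in every setting tried in which the gene was tested, whereas the calls of Fgfr3, Frs3 and Fgf7 each ended in some settings.

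**Figure D1:**
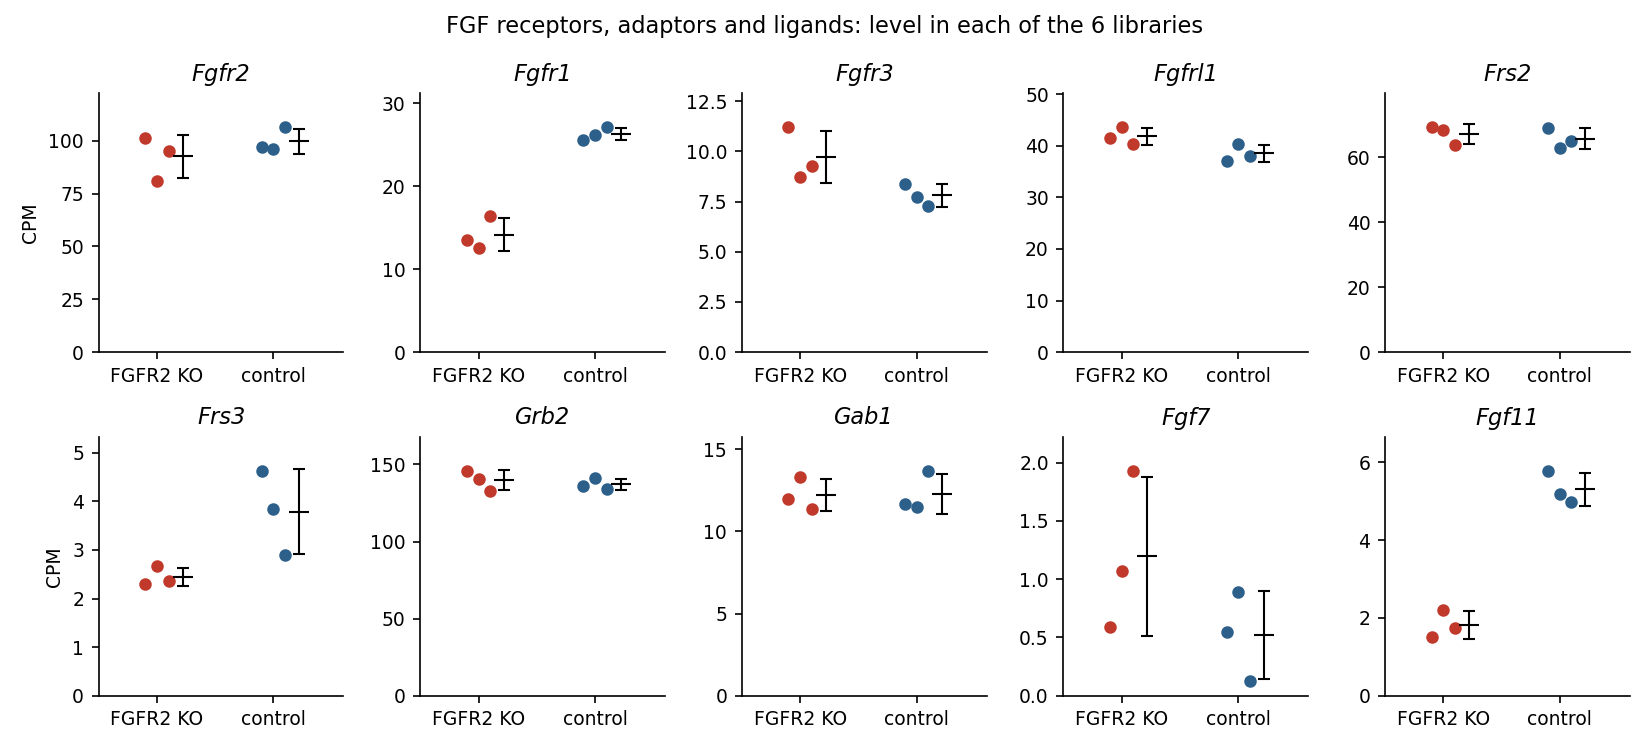
Level of each of the 10 genes in CPM (vertical axes start at 0) in the 3 FGFR2 KO and the 3 control libraries, with the group mean and SD in black. Fgfr1 and Fgf11 stand clearly lower in all KO libraries, and the points of Grb2, Frs2, Gab1 and Fgfr2 overlap between groups.

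Fgfr2, the gene named by the guides, was transcribed in every library. It had 1896, 1589 and 1928 counts in KO replicates 1 to 3 and 1777, 1948 and 1649 counts in control replicates 1 to 3, which is 101.4, 81.2 and 95.2 CPM in KO and 96.9, 95.9 and 106.4 CPM in control. The groups overlapped, and KO replicate 2 was the lowest of the 6. The KO level was lower by a log2 difference of -0.11 (95% interval -0.22 to 0.01, SE 0.0564), which did not pass the test (edgeR adjusted p = 0.113). Small insertions or deletions need not lower a transcript, so the count over the whole gene is no check of the edit.

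The spread of Fgfr2 within the KO group was wider than counting error. KO replicate 2 had an exact Poisson interval of 77.2 to 85.3 CPM, against 96.9 to 106.1 CPM for KO replicate 1 and 91.0 to 99.6 CPM for KO replicate 3; such intervals cover counting error only. Leaving out KO replicate 1 gave a log2 fold change of -0.17 that passed the test (edgeR adjusted p = 0.0081), and leaving out KO replicate 2 gave -0.02 (edgeR adjusted p = 0.809). The genes with the pattern most like that of Fgfr2, by Pearson's r of log2 CPM over the 6 libraries among the 9781 genes averaging 5 CPM or more, were Usp38 (r = 0.999), Exoc2 (0.983), Kdm5c (0.981), Tnrc6b (0.980) and Chd7 (0.976). Each of these had its lowest value in KO replicate 2, and none was called. Exoc2, for example, had 51.6, 42.0 and 48.1 CPM in KO and 51.1, 50.2 and 54.4 CPM in control. Both traits come with the choice by r, so they are not separate evidence about that library.

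Fgfr1 (chromosome 8, 25513654 to 25575718, plus strand), the receptor that predominates in mesenchymal cells, was the receptor called lower in KO. It had 253, 247 and 332 counts (13.5, 12.6 and 16.4 CPM) in the KO libraries and 469, 533 and 420 counts (25.6, 26.2 and 27.1 CPM) in the control libraries. Every KO library was well below every control library. The log2 fold change was -0.89 ± 0.0919 (± SE, edgeR adjusted p = 2.03e-10), a level of 0.54 of the control with a 95% interval of 0.475 to 0.615. The genes with the most similar pattern were Irf9 (r = 0.999), Gfod1 (0.998), and Wdr19, Pmvk and Dlg4 (0.997 each), all lower in KO. The 6 points of each r share the division into groups.

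Fgfr3 (chromosome 5, 33721674 to 33737068, plus strand), a receptor best known for restraining bone growth, had 209, 171 and 188 counts (11.2, 8.73 and 9.28 CPM) in the KO libraries and 154, 157 and 113 counts (8.39, 7.73 and 7.29 CPM) in the control libraries. All KO libraries were above all control libraries, by a small margin for KO replicate 2. Fgfr3 was higher in KO by 0.31 ± 0.129 on the log2 scale (± SE, edgeR adjusted p = 0.0388). The call ended with DESeq2 (adjusted p = 0.115), with limma-voom (0.0535), with edgeR under upper quartile scaling (0.0563), and without KO replicate 1 (0.231), control replicate 2 (0.0956) or control replicate 3 (0.119).

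Fgfrl1 (chromosome 5, 108692382 to 108706924, plus strand) encodes a receptor that binds FGFs but lacks the tyrosine kinase domain. It had 41.5, 43.6 and 40.4 CPM in the KO libraries and 37.1, 40.4 and 38.1 CPM in the control libraries, and the groups met at KO replicate 3 and control replicate 2. The log2 fold change of 0.12 (95% interval -0.01 to 0.24, SE 0.0626) did not pass the test (edgeR adjusted p = 0.115). Fgfr4, the remaining receptor kinase of the family, had 1 count over the KO libraries and 0 over the control libraries. A count of 0 allows up to 0.148 to 0.194 CPM (3 counts) in a control library.

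To set receptors beside each other, CPM were divided by the length of the union of annotated exons. On this scale Fgfrl1 stood highest, at 14.9, 15.7 and 14.5 CPM per kb in the KO and 13.3, 14.5 and 13.7 in the control libraries. Fgfr2 followed at 8.97 ± 1.00 in KO and 9.66 ± 0.563 in control, then Fgfr1 at 1.44 ± 0.200 in KO and 2.66 ± 0.0783 in control, and Fgfr3 at 1.36 ± 0.179 in KO and 1.09 ± 0.0774 in control (SD, n = 3 each). In the control libraries every neighbour in this order was separated, with Fgfr1 at 2.44 times Fgfr3. In the KO libraries Fgfr1 and Fgfr3 overlapped, at a ratio of means of 1.06, while the other neighbours stayed apart.

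The length used decides the top of that order. Per kb of the longest transcript, Fgfr2 lay above Fgfrl1, at 20.9 and 18.0 CPM per kb in KO, where their ranges overlapped, and at 22.5 and 16.5 in control, where they did not. Per kb of the longest coding sequence Fgfr2 was 1.39 times Fgfrl1 in KO and 1.63 times in control. By this coding length Fgfr1 and Fgfr3 did not overlap in KO. Fgfr2 was the highest of the receptor kinases by each of the 3 lengths in both groups.

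**Figure D2:**
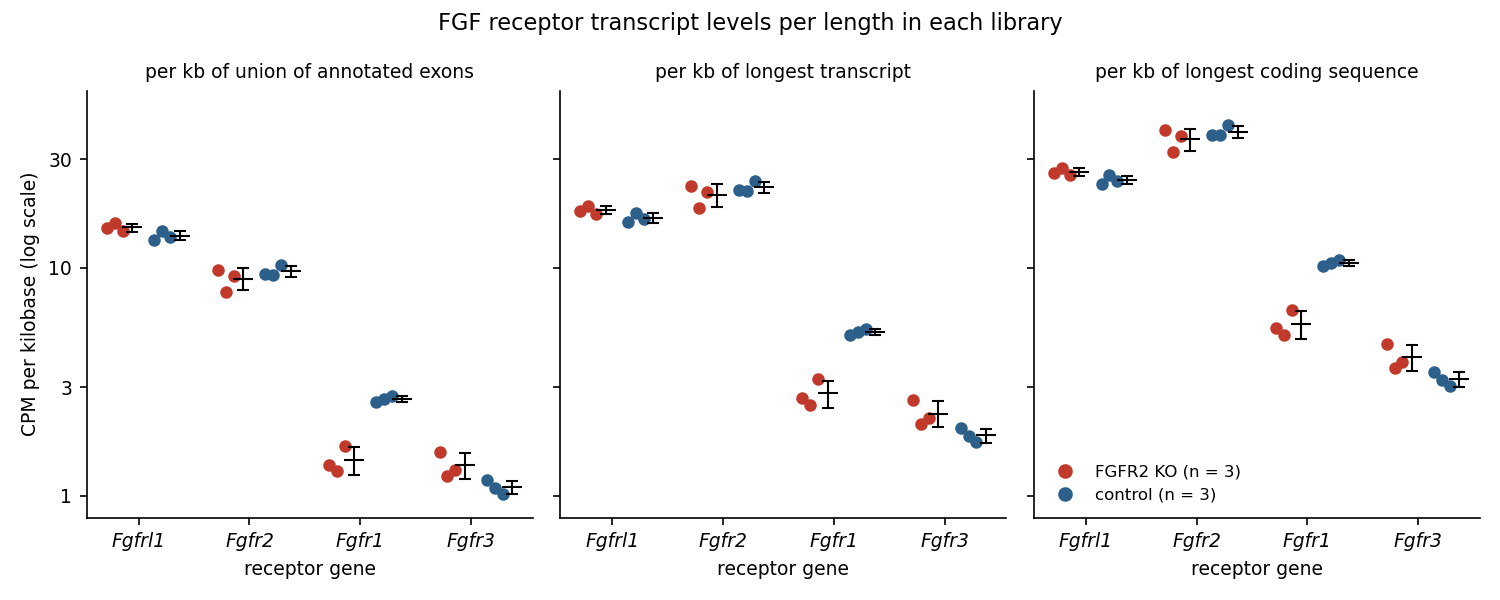
Level of the 4 receptor genes in CPM per kilobase (log axis) in each FGFR2 KO and control library, by the 3 gene lengths; black marks give the mean and SD. Fgfr2 and Fgfrl1 exchange places between the left and the other panels, while Fgfr1 is lower in KO in each and comes close to Fgfr3 there.

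Of the summed level per kb of exon of the receptor kinases Fgfr1, Fgfr2 and Fgfr3, Fgfr2 made up 75.7% to 77.0% in the KO libraries and 71.3% to 73.2% in the control libraries. Fgfr1 made up 10.7% to 13.6% in KO and 19.5% to 20.4% in control, and Fgfr3 10.7% to 12.2% in KO and 7.24% to 8.92% in control. All 3 shares were separated between the groups, and shares of a sum are not independent of each other. The ratio of counts within a library does not depend on how libraries are scaled. The count of Fgfr1 was 13.3%, 15.5% and 17.2% of that of Fgfr2 in KO replicates 1 to 3, against 26.4%, 27.4% and 25.5% in control replicates 1 to 3, a difference of -0.79 on the log2 scale. The ratio of Fgfr3 to Fgfr2 was 11%, 10.8% and 9.75% in KO and 8.67%, 8.06% and 6.85% in control, a difference of 0.42. Both ratios were separated in all 6 libraries, and an exact two-sided permutation test gave p = 0.1 for each, the smallest value that 3 libraries against 3 can give.

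Tested genes next to Fgfr1 on both sides were also lower in KO, by uneven amounts. Of 18 other tested genes within 500 kb, 8 were lower in KO, 3 higher and 7 not called. Among all tested genes 27.5% were lower and 27.1% higher. Taking each side separately, the 8 that fell are the tested genes nearest to Fgfr1, 2 before it and 6 after it. Lsm1, Star and Ash2l, after Fgfr1, lie nearer to it than Tacc1 does and were not called lower. The 8 run from Tacc1 (chromosome 8, 25154552 to 25256588), a centrosome-associated coiled-coil gene, to Bag4 (25764538 to 25785287), a chaperone cofactor. Untested genes with few counts lie among them, such as D830025C05Rik with 19 counts over the KO and 13 over the control libraries. This stretch was picked out after its values were seen, and neighbouring genes are not independent replicates of each other. All 8 stayed called in every alternative in which they were tested except without control replicate 1, where 7 did; under a minimum mean of 5 CPM 6 were tested.

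The size of the fall was uneven along the stretch. Letm2 (25578490 to 25597582, minus strand), a gene of the mitochondrial LETM family that starts 2.77 kb past the end of Fgfr1, had 2.78, 5.16 and 3.26 CPM in KO and 8.83, 8.76 and 8.26 CPM in control, a difference of -1.21 ± 0.171 on the log2 scale (± SE, edgeR adjusted p = 1.96e-07). Tacc1 had 17.7, 19.9 and 18.7 CPM in KO and 32.0, 32.6 and 34.9 CPM in control, a difference of -0.82 ± 0.0774 (± SE, edgeR adjusted p = 2.11e-11). The groups did not overlap for either gene. Nsd3, a histone methyltransferase gene that is often amplified together with FGFR1 in human breast cancer, Plpp5, Ddhd2 and Bag4 fell by 0.17, 0.25, 0.22 and 0.23 on the log2 scale. Gm31045 (-1.76) and Gm17484 (-1.42) stood below 2 CPM in every library. Both passed the filter through the control libraries, where they were higher, and the groups overlapped for Gm31045. Apart from Gm31045, Tacc1 was the only called lower gene before Fgfr1. On the outer sides of the stretch Plekha2 (-0.03) was not called and Lsm1 was higher in KO by 0.18, and Tm2d2, farther out, was higher by 0.45. Around Fgfr2, 3 genes within 500 kb were tested: Tacc2 was higher in KO by 0.20 (edgeR adjusted p = 4.02e-04), and Ate1 (0.07) and Nsmce4a (-0.04) were not called.

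**Figure D3:**
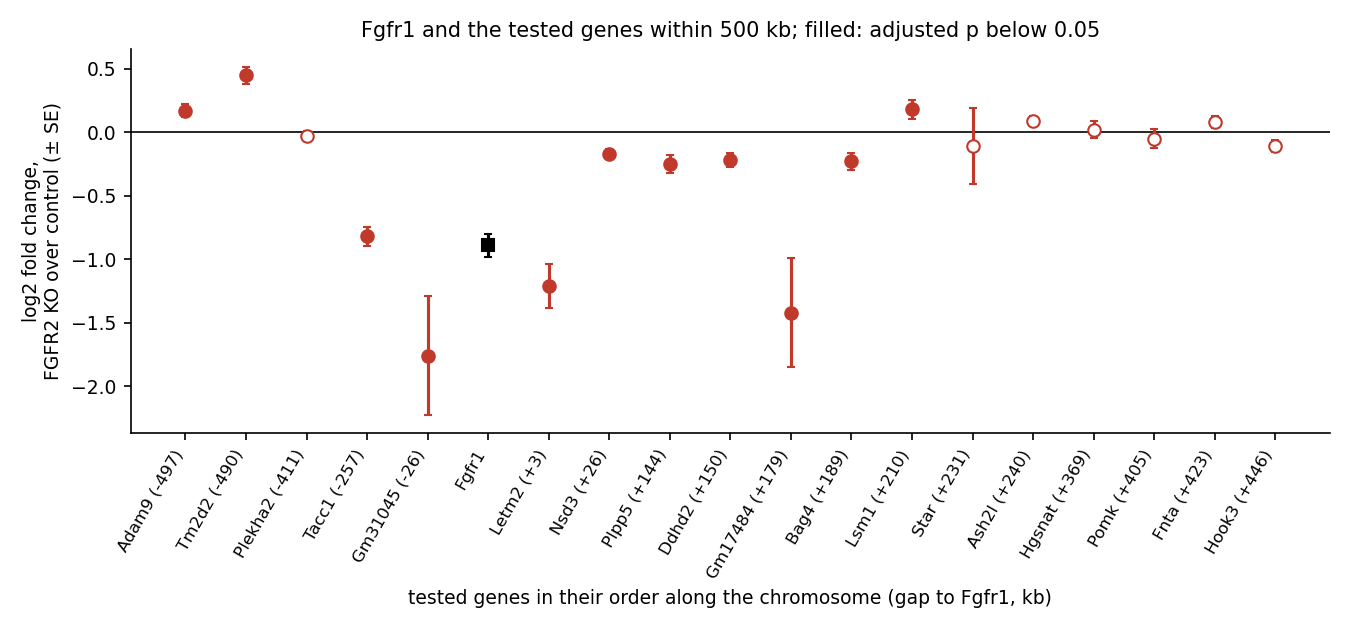
Log2 fold change (FGFR2 KO over control, ± SE) of Fgfr1 (square) and of the 18 other tested genes within 500 kb, in chromosome order, with the gap to Fgfr1 in kb after each name. The filled points from Tacc1 to Bag4 lie below 0, and the genes beyond them scatter about it or above.

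Of the 4 adaptors, Grb2, Frs2 and Gab1 were not called and Frs3 was lower in KO. Grb2 (chromosome 11, 115644045 to 115708597), whose SH2 and SH3 domains connect phosphorylated receptors and FRS2 to the RAS activator SOS, had 2728, 2747 and 2690 counts in KO and 2492, 2869 and 2076 counts in control. The difference was 0.03 on the log2 scale (95% interval -0.06 to 0.11, edgeR adjusted p = 0.622). Frs2 (chromosome 10, 117069427 to 117148534), the main docking protein of FGF receptors, had 69.3, 68.5 and 63.7 CPM in KO and 69.2, 62.9 and 65.1 CPM in control, a difference of 0.03 (95% interval -0.08 to 0.14, edgeR adjusted p = 0.633). Gab1 (chromosome 8, 80764438 to 80880519), which recruits PI3K and SHP2, had 12.0, 13.3 and 11.4 CPM in KO and 11.7, 11.5 and 13.7 CPM in control, a difference of -0.01 (95% interval -0.23 to 0.22, edgeR adjusted p = 0.967). The groups overlapped for all of these, and the intervals leave room for differences of up to about those bounds.

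Frs3 (chromosome 17, 47689030 to 47704286), the less abundant relative of Frs2, was lower in KO. It had 43, 52 and 48 counts (2.30, 2.66 and 2.37 CPM) in the KO libraries and 85, 78 and 45 counts (4.63, 3.84 and 2.90 CPM) in the control libraries. The groups did not overlap, but control replicate 3 lay close to the KO libraries. The difference was -0.64 ± 0.220 on the log2 scale (± SE, edgeR adjusted p = 0.0131). The call ended with DESeq2 (adjusted p = 0.0548) and without control replicate 1 (edgeR adjusted p = 0.114). Tomm6os, annotated on the same strand and overlapping Frs3, had 20 counts over the KO and 14 over the control libraries. On the opposite strand, Gm21981 had 1 count over the KO and 5 over the control libraries, Prickle4 1 and 3, and Frs3os 0 in both. Per kb of exon the order of the adaptors was Grb2, Frs2, Gab1 and Frs3 in both groups, with no overlap between neighbours; Frs2 stood at 7.68 ± 0.351 CPM per kb in KO and 7.51 ± 0.366 in control, and Frs3 at 0.781 ± 0.0603 in KO and 1.21 ± 0.277 in control (SD, n = 3 each).

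Fgf11 (chromosome 11, 69796068 to 69801857, minus strand) belongs to the FGF homologous factors, which remain inside the cell and bind voltage-gated sodium channels rather than acting as secreted ligands. It had 28, 43 and 35 counts (1.5, 2.20 and 1.73 CPM) in the KO libraries and 106, 105 and 77 counts (5.78, 5.17 and 4.97 CPM) in the control libraries. Each KO library was below each control library, and the Poisson intervals of the libraries also did not meet between groups, the highest in KO ending at 2.96 CPM and the lowest in control starting at 3.92 CPM. The difference of -1.55 ± 0.210 on the log2 scale (± SE, edgeR adjusted p = 8.32e-08) was the largest in size among the 10 genes.

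Fgf7 (chromosome 2, 126034658 to 126091185, plus strand) encodes keratinocyte growth factor, a ligand of the IIIb form of FGFR2 that is usually made by mesenchymal cells. It had only 11, 21 and 39 counts (0.588, 1.07 and 1.93 CPM) in the KO libraries and 10, 18 and 2 counts (0.545, 0.886 and 0.129 CPM) in the control libraries. The groups overlapped: KO replicate 1 was below control replicate 2, and KO replicate 3 and control replicate 3 were the extremes. Fgf7 was higher in KO by 1.13 ± 0.457 on the log2 scale (± SE, 95% interval 0.20 to 2.06), which passed narrowly (edgeR adjusted p = 0.0350). The difference was 0.60 without KO replicate 3 (edgeR adjusted p = 0.36) and 0.74 without control replicate 3 (0.201), and the call ended too without control replicate 1 (0.0962) and with DESeq2 (adjusted p = 0.12). Beside Fgf7, of the 7 fibroblast markers, Col1a1 stood at 1.24 CPM in KO and 0.437 CPM in control and was called higher. Dcn stood at 0.564 CPM in KO and 0.0363 CPM in control. Dcn (33 counts over the KO and 2 over the control libraries) and Pdgfrb (26 and 2) were below the filter. Pdgfra, at 39.4 CPM in KO and 36.4 CPM in control, was not called (edgeR adjusted p = 0.143), and Lum, Col3a1 and Thy1 were at 0. The part of these markers in the value of Fgf7 was not tested.

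Few other ligand genes were transcribed. Of 22 FGF genes, 12 had no count in any library and 4 were tested. Fgf1, which can bind all FGF receptors, had 61 counts over the KO and 67 over the control libraries (-0.24 ± 0.347 on the log2 scale, edgeR adjusted p = 0.573). Fgf20 had 71 over the KO and 73 over the control libraries (-0.15 ± 0.327, edgeR adjusted p = 0.721). Below the filter, Fgf17 had 30 counts over the KO and 20 over the control libraries. Fgf2, Fgf21, Fgf18, Fgf15 and Fgf9 had 7, 5, 2, 2 and 0 counts over the KO libraries and 9, 0, 3, 0 and 1 over the control libraries. The epithelial-form ligands Fgf10 and Fgf22 were among those at 0.

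**Figure D4:**
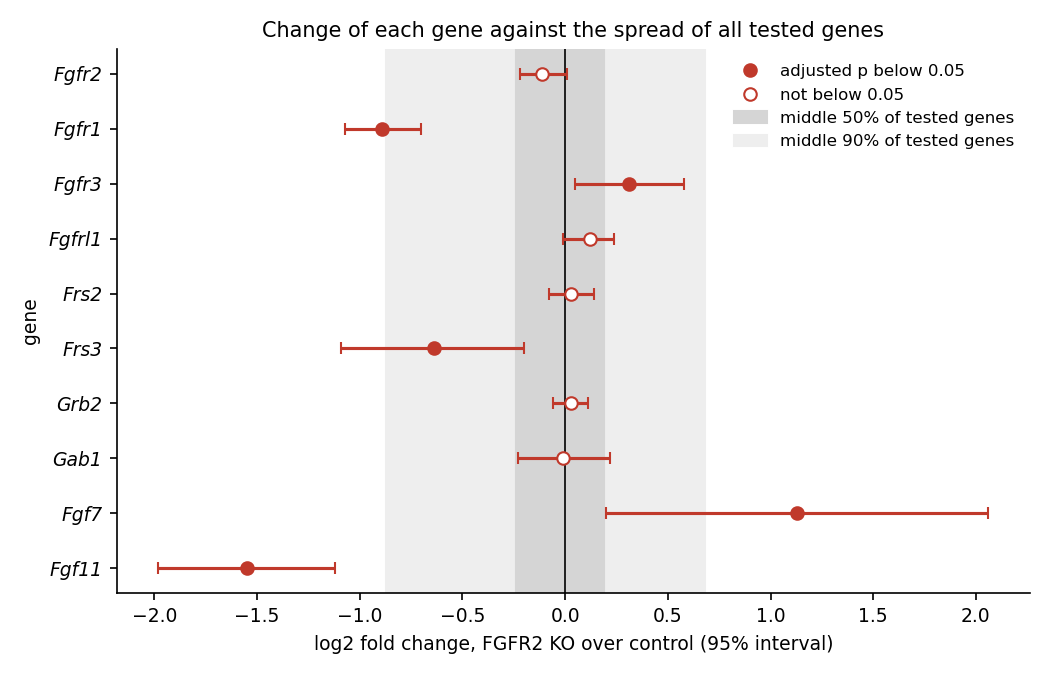
Log2 fold change of the 10 genes (FGFR2 KO over control, with 95% interval); filled points had an edgeR adjusted p below 0.05. Grey bands span the middle 50% (-0.24 to 0.19) and 90% (-0.87 to 0.68) of all tested genes; Fgfr1, Fgf11 and Fgf7 lie beyond the wider band.

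Other genes of the pathway were read from lists chosen with earlier results of these data known. Of 10 carriers and membrane partners, 4 were tested, 1 higher and 1 lower in KO, against the 54.6% called among all tested genes. Fgfbp1, a secreted carrier that releases FGFs from the matrix, had 17.3, 21.8 and 18.6 CPM in KO and 54.3, 64.4 and 59.2 CPM in control, a difference of -1.63 ± 0.0754 on the log2 scale (± SE, edgeR adjusted p = 2.46e-20). The adhesion molecule gene L1cam, whose product can bind FGFR1, had 6.26, 6.18 and 6.07 CPM in KO and 3.65, 2.26 and 2.45 CPM in control (1.14 ± 0.188 on the log2 scale, edgeR adjusted p = 2.83e-06). Flrt3, a transmembrane partner of FGF receptors, stood at 55.9 ± 6.14 CPM in KO and 52.7 ± 0.597 CPM in control (SD, n = 3 each) and was not called (0.09). The klotho coreceptor genes Kl and Klb, needed by the hormone-like FGFs, had 1 and 4 counts over the KO libraries and 0 over the control libraries.

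Of 16 receptor-proximal adaptors and effectors besides the 4 above, 15 were tested, 6 higher and 5 lower in KO, with a median log2 fold change of 0.08; of all tested genes 54.6% were called. With the 4 included, 12 of 19 were called, and 9 with DESeq2 or without KO replicate 2. Ptpn11, the gene of SHP2, was higher by 0.33 on the log2 scale (edgeR adjusted p = 1.17e-09), at 277.7 ± 1.77 CPM in KO and 220.2 ± 8.0 CPM in control (SD, n = 3 each). Shc1, an adaptor that brings GRB2 to receptors, fell by 0.27 on the log2 scale (edgeR adjusted p = 4.14e-07). Phospholipase C gamma (Plcg1), which FGF receptors bind directly, fell by 0.23, and Sh2b1 by 0.26. Both ubiquitin ligase genes that help remove active receptors, Cbl (0.23) and Cblb (0.27), were higher in KO. Grb14, an inhibitory adaptor described for FGFR1, stood at 1.80 ± 0.312 CPM in KO and 0.680 ± 0.253 CPM in control (1.43 ± 0.353 on the log2 scale, edgeR adjusted p = 8.21e-04).

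Of 13 genes of the core from RAS to ERK, all tested, 2 were higher, 4 lower and 7 not called, with a median of 0.00, a share called that is near the 54.6% of all tested genes. The scaffold gene Ksr1, which holds RAF, MEK and ERK together, had 32.4, 31.4 and 32.1 CPM in KO and 63.8, 64.3 and 58.3 CPM in control (-0.96 ± 0.0599 on the log2 scale, edgeR adjusted p = 1.89e-16), the largest change of the list. The groups were far apart. The genes of MEK1 (Map2k1) and ERK1 (Mapk3) fell by 0.39 and 0.43 on the log2 scale, while Map2k2 (0.01), the gene of MEK2, was not called. Hras was higher in KO by 0.49 ± 0.0684 (edgeR adjusted p = 1.26e-07).

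All 7 listed regulators of the choice between FGFR2 exons IIIb and IIIc were called, 5 higher and 2 lower in KO, each by a small amount, where 54.6% of all tested genes were called. Without KO replicate 2, 5 of the 7 were called, and 6 without control replicate 1 or control replicate 2 and with DESeq2 or upper quartile scaling. Esrp1 and Esrp2, the epithelial splicing factors that favour IIIb, stood at 77.6 ± 2.25 and 27.1 ± 3.67 CPM in KO and 71.2 ± 3.74 and 21.5 ± 0.994 CPM in control (SD, n = 3 each), with log2 fold changes of 0.13 and 0.33 (edgeR adjusted p = 0.0334 and 0.00131). Ptbp1, a repressor of exon IIIb, was higher by 0.12, Rbfox2 by 0.14 and Hnrnpm by 0.11, while Hnrnpa1 and Tia1 fell by 0.34 and 0.32 on the log2 scale. What these levels do to the forms of Fgfr2 was not tested, since the counts do not separate them.

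The voltage-gated sodium channels, to which proteins of the Fgf11 subfamily bind, moved in opposite directions. Of 9 listed genes 3 were tested and all 3 were called, 1 higher and 2 lower in KO, where 54.6% of all tested genes were called. Scn3a had 14.1, 14.6 and 16.9 CPM in KO and 0.981, 1.62 and 1.10 CPM in control, a difference of 3.59 ± 0.174 on the log2 scale (± SE, edgeR adjusted p = 9.40e-20). Scn8a had 18.5, 19.9 and 18.5 CPM in KO and 28, 28.8 and 31.7 CPM in control (-0.63 ± 0.0799, edgeR adjusted p = 1.80e-08). Neither pair of groups overlapped.

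**Figure D5:**
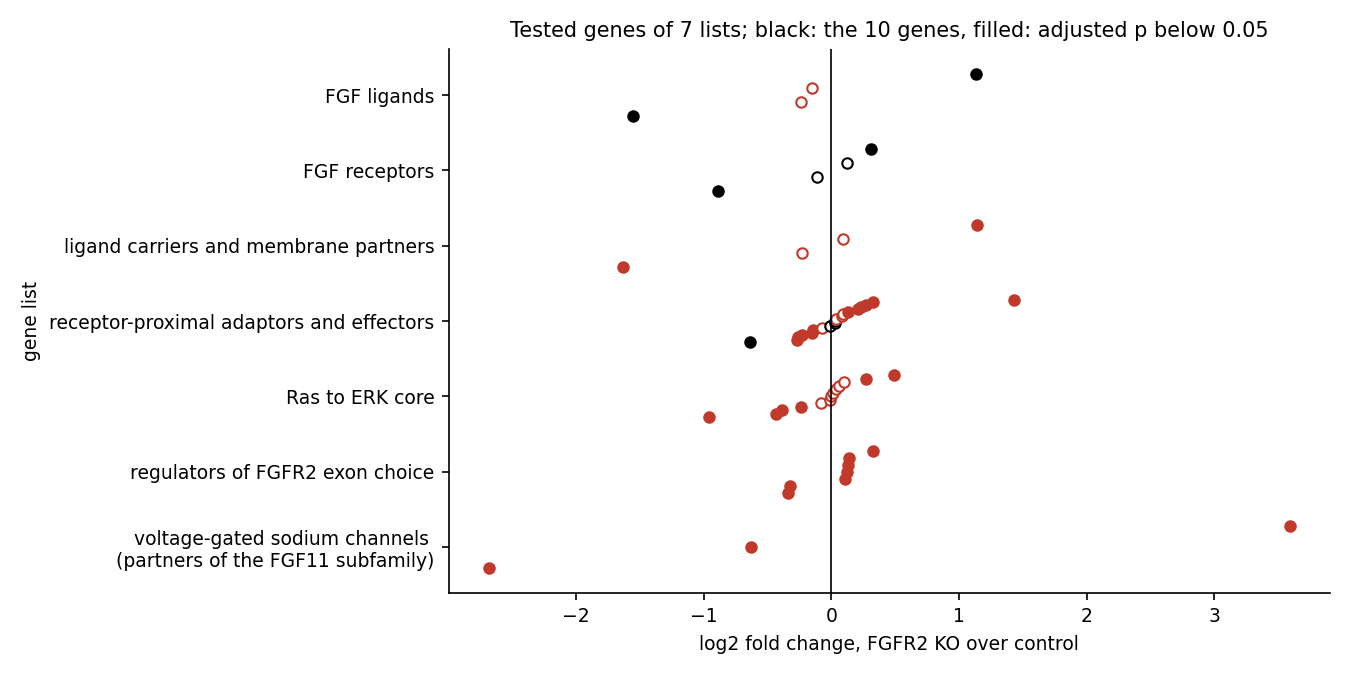
Log2 fold change (FGFR2 KO over control) of each tested gene in 7 lists, 1 row of points a list; black points are the 10 genes described above and filled points had an edgeR adjusted p below 0.05. Most adaptors and RAS to ERK genes lie close to 0, and the widest differences are among the ligand family, the carriers and the sodium channels.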

How the data were processed

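The deposited values are raw counts of reads per gene symbol, 1 column per library. The submitters' processing notes name FastQC 0.11.9, STAR 2.7.9a, featureCounts, R 4.1.1 and the builds hg38 and mm10. Annotation release, strand setting and treatment of multiply aligned reads are not stated there or in the labels, so overlapping genes are uncertain to that extent. Of the symbols, 98.2% occur in GENCODE M21 (mm10), which gave positions and lengths. Counts were filtered with filterByExpr (minimum count 10, total 15), TMM-scaled and tested with edgeR 4.0.16 (R 4.3.3) by its quasi-likelihood F-test, with group as the only term and Benjamini-Hochberg adjustment over all 12158 genes; a call is an adjusted p below 0.05. Fold changes are KO over control, and CPM use the TMM-scaled total. The procedure was also run on simulated counts with far fewer changed genes than were called here. That run is no check of these calls. The genes and lists were chosen with earlier results of these data known. Named were the 10 genes, FGF family genes with a count, mainly the called list genes with the smallest adjusted p (others were chosen after their values were seen), the 5 genes most alike and the neighbours within 500 kb. DESeq2 1.42.0, limma-voom 3.58.1, other scalings and filters, a replicate block and fits without each library were alternatives. Every pair of replicates differed by more than counting noise. Some list genes are not reported here.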

Additional observations from a re-analysis of the deposited data

How the results depend on the processing

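The falls of Fgfr1 and Fgf11 kept their direction and call in every alternative that tested them; without each library in turn the log2 fold change of Fgfr1 ran from -1.01 to -0.81 and that of Fgf11 from -1.71 to -1.43. Leaving out libraries gave -0.17 to -0.02 for Fgfr2, 0.21 to 0.39 for Fgfr3, -0.79 to -0.48 for Frs3 and 0.60 to 1.76 for Fgf7. The genes near 0 changed sign: Frs2 ran from -0.0002 (without control replicate 2) to 0.07, Grb2 from -0.004 (without KO replicate 1) to 0.06 and Gab1 from -0.07 to 0.07, with 0.04 without KO replicate 3, 0.0093 without KO replicate 1, 0.00037 with limma-voom and 0.0016 with no filter. Calls ended for Fgfr3 with upper quartile scaling (0.29), DESeq2 (0.32) and limma-voom (0.30), for Frs3 with DESeq2 (-0.63), and for Fgf7 with DESeq2 (1.18) and the replicate block (1.09); the causes were not tested. Of the 10 genes, 5 were called, 2 with DESeq2, 2 of 7 tested under a minimum mean of 5 CPM, and 3 to 5 without each library, with 3 without control replicate 1 or control replicate 3. The count over all tested genes moved as well. It was 6639 of 12158 in the main fit, 5693 of 14596 with DESeq2 and 5831 of 10063 under the minimum of 5 CPM. Without each library it was 5922 to 6276. Of the FGF ligand list 2 were called, 1 with DESeq2 or the replicate block, 0 where 0 members passed 5 CPM, and 1 to 2 without each library. Of the receptor list 2 were called, 1 with upper quartile scaling, DESeq2 or limma-voom, and 1 to 2 without each library. Of the carriers 2 were called, and 1 under the minimum of 5 CPM. The block was not called for by the data: same-numbered libraries correlated at -0.0259, -0.00697 and -0.061 in their deviations from the group means. No library correlated best with its own number. The block called 4 of the 10 genes and 6443 of all genes. Upper quartile scaling split all calls into 2969 higher and 3603 lower, beside 3300 and 3339 with TMM.

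Per kb of the longest transcript, KO levels were 20.9 (Fgfr2), 2.81 (Fgfr1), 2.29 (Fgfr3) and 18.0 (Fgfrl1) and control levels 22.5, 5.22, 1.84 and 16.5 CPM per kb in the same order. Per kb of the longest coding sequence, an alternative chosen after seeing the data in place of a RefSeq protein length that was not run, KO levels were 36.7, 5.67, 4.05 and 26.4 and control levels 39.6, 10.5, 3.24 and 24.3. The log2 ratio to Fgfr2 kept its sign without each library, from -0.87 to -0.69 for Fgfr1 and 0.33 to 0.50 for Fgfr3. With 71 counts over the KO and 30 over the control libraries, Fgf7 had the fewest counts of the 10 genes.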
